A study of Mus musculus with 48 samples.

Results

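The comparison set chin skin labelled late anagen against chin skin labelled mid anagen, over every gene of the deposited skin table. Its members were picked by their column labels alone, and they are 4 libraries of whole C57BL/6 mouse skin, 2 per stage, out of 14 chin libraries, 43 libraries of the skin table and 48 libraries of the series. The study profiled chin, ventral and dorsal skin at 6 steps of the hair cycle, from competent telogen through early, mid and late anagen and catagen to refractory telogen, to ask how the cycle differs among body regions. The labels name no transgene or treatment, and neither the animals' ages nor the number of mice behind a library is given in the sources used here. Values are fragments per kilobase of transcript scaled to the mapped fragments of a library (FPKM), so that levels can be set side by side between genes within a library. Depth, estimated from the size of the smallest FPKM steps, was 9268414 and 6703383 fragments in the mid anagen libraries and 15038481 and 16421842 in those labelled late anagen, within 6703383 to 26222355 over the 43 libraries. The mid anagen pair was therefore the shallower.

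Anagen is the growth phase of the hair follicle. Matrix cells around the dermal papilla divide and differentiate into the hair shaft and the inner root sheath that moulds it, while WNT, BMP, hedgehog and FGF signals pass between the papilla, the matrix and the stem cells of the bulge. Between mid and late anagen the bulb is fully formed and the shaft lengthens through the skin surface, and the dermal fat layer around the deep bulbs is known to thicken as anagen proceeds. Whole skin also holds epidermis, sebaceous gland, dermis, vessels, nerve, immune cells and, where the dissection reaches it, the thin panniculus muscle. In such bulk samples more cells of a type and more RNA per cell cannot be told apart.

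The profile of the 4 libraries was first set against that of the other chin libraries. Hox genes keep a record of position along the body and are mostly silent in skin of the face. Hoxb7 was at 0.30 and 0.40 FPKM in the mid anagen libraries and at 7.25 and 8.41 FPKM in the libraries labelled late anagen. It was between 0 and 0.77 FPKM in the other 12 chin libraries and between 3.06 and 18.15 FPKM in the 29 ventral and dorsal libraries. The late-labelled pair thus lay outside all other chin libraries and inside the range of trunk skin. Hoxb6 went from 0.89 and 0.78 FPKM to 7.13 and 6.16 FPKM, with at most 1.42 FPKM in the other chin libraries and at least 2.66 FPKM in the trunk libraries. Hoxa7, which shares 20.4% of its exon bases with the antisense gene Hoxaas3, went from 0.91 and 0.32 FPKM to 7.16 and 6.60 FPKM. Of the 9 Hox genes with a median of at least 2 FPKM in trunk skin, all 9 were within the trunk range in the late-labelled libraries. The mid libraries were also within that range in Hoxc13, Hoxc8, Hoxc6, Hoxd8, Hoxa5 and Hoxb2. By this measure only Hoxb7, Hoxb6 and Hoxa7 set the 2 pairs apart. In the late-labelled pair 5 of the 9 were above every other chin library, Hoxc8 and Hoxc6 narrowly. Hoxc8 was at 4.31 and 4.17 FPKM against at most 3.95 FPKM, and Hoxc6 at 1.98 and 2.09 FPKM against at most 1.97 FPKM. Neither was called. Dlx5, a homeobox gene of the lower jaw, was at 4.03 and 7.06 FPKM in the mid libraries and at 2.09 and 1.68 FPKM in the late-labelled ones. The Hox and head patterning genes were chosen after their values were seen.

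The late-labelled libraries lay closer to dorsal skin labelled competent telogen than to any chin group. In a limma fit of all 153 pairs of groups over 21257 genes, 2 genes differed between them, the fewest of any pair, and the next fewest was 454 genes for chin competent telogen against chin early anagen. The same libraries differed from ventral catagen in 2431 genes, from chin catagen in 2792, from dorsal late anagen in 4144 and from chin mid anagen in 4197. When fitted as its own comparison over 15891 genes, 5 genes (0.0315%) differed from dorsal competent telogen: the small RNA genes Gm24507, Gm23658 and Snora19 were lower, the pseudogene Gm14811 and the RNA gene Gm27997 were higher, and no protein-coding gene was called. The root mean square difference on the log2(FPKM + 1) scale was 0.345, 0.351, 0.365 and 0.405 over the 4 pairs of a late-labelled and a dorsal competent telogen library, against 0.382 between the late-labelled pair. Spread over the estimated counting error was 1.46 to 1.64 between the late-labelled and the dorsal competent telogen libraries, 2.02 within the late-labelled pair, and 1.08 to 5.42 with a median of 1.91 over 32 pairs of libraries of the same group. By this measure the late-labelled and the dorsal competent telogen libraries differed by less than the median pair of replicates. The dorsal competent telogen libraries themselves held hair shaft genes, with 6818 and 6887 FPKM summed over 9 type I hair keratins, against 1561 to 2641 FPKM in chin refractory telogen. The library labels go against the Hox genes, no other chin late anagen library was at hand, and body region and stage cannot be told apart in what follows.

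**Figure D1:**
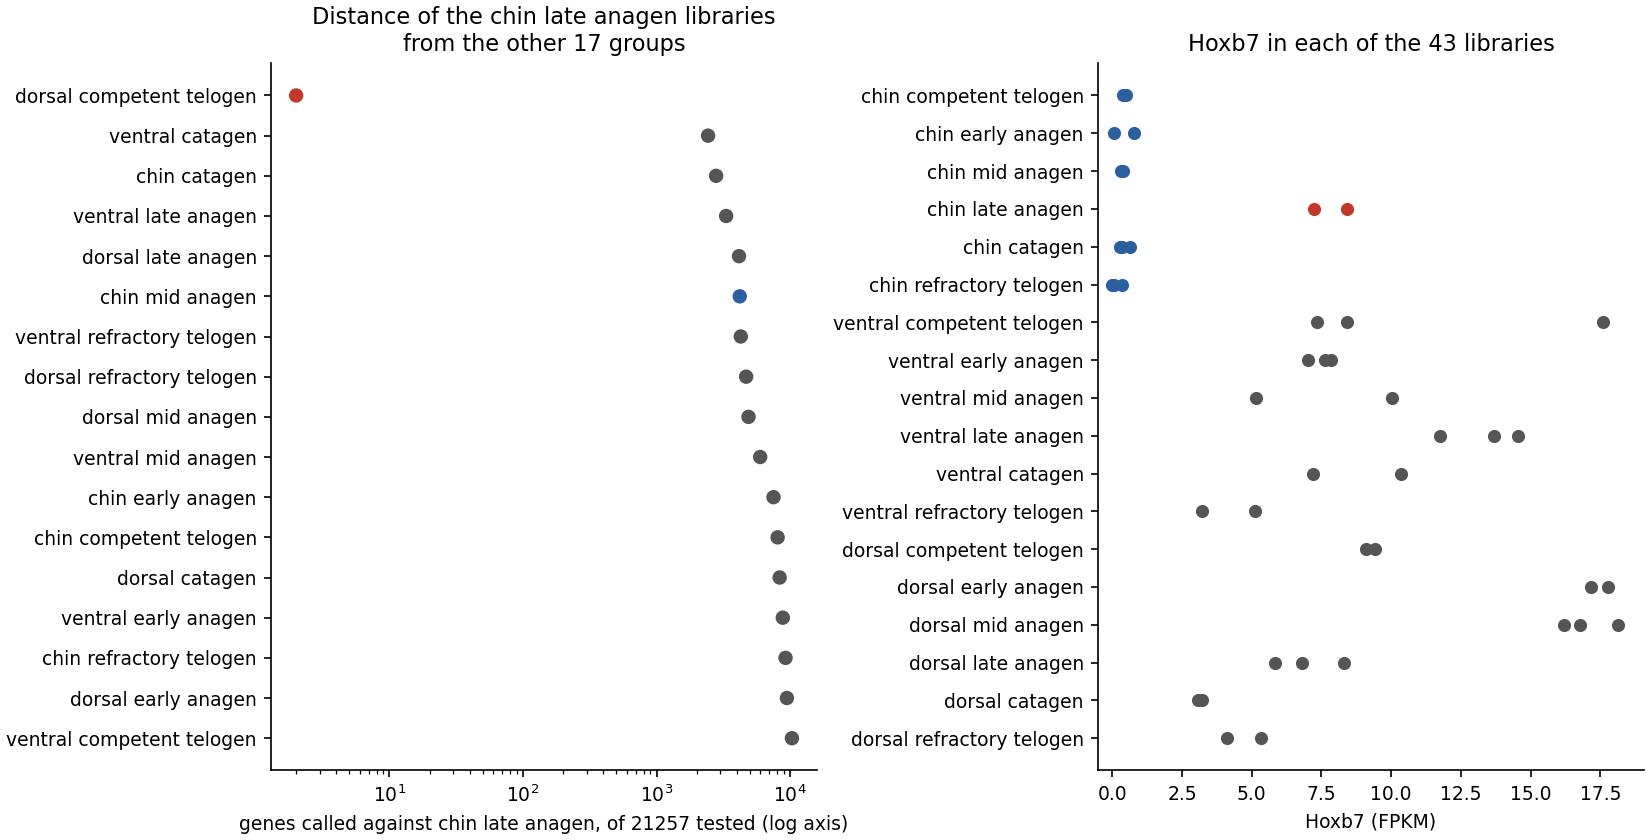
Left, number of genes called (limma, adjusted p under 0.05, of 21257 tested, log axis) between the libraries labelled chin late anagen and each of the other 17 groups, with dorsal competent telogen in red and chin mid anagen in blue. Right, Hoxb7 in FPKM, 1 point per library by labelled group, with the late-labelled chin pair in red at 7.25 and 8.41 FPKM, away from the other 12 chin libraries in blue, which do not exceed 0.77 FPKM.

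The mid anagen pair was the more variable. Its libraries differed by a median of 0.282 on the log2 scale and by at least 1 log2 unit in 996 genes, against 0.126 and 302 genes in the late-labelled pair. Its spread over counting error was 4.80, the second highest of the 32 same-group pairs. The library nearest to mid anagen replicate 1 was a dorsal late anagen library (root mean square difference 0.598), and the one nearest to replicate 2 was a ventral catagen library (0.605), so that neither was nearest to its partner. The cause of this spread was not tested.

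Of 46983 genes in the table, 16216 reached 0.5 FPKM in at least 2 of the 4 libraries and were tested. At an adjusted p under 0.05, 1622 genes (10.0%) were higher and 2762 genes (17.0%) were lower in the late-labelled libraries. Most changes were small, with 497 higher and 356 lower genes past 1 log2 unit, and 55 and 10 past 3 log2 units. The 4 libraries did not overlap between stages in 1611 of the higher and 2741 of the lower genes, while of all genes tested 23.6% lay wholly above and 34.3% wholly below. The median change of all tested genes was -0.07 as deposited, 0.005 after median of ratios scaling and -0.05 after rescaling to TPM. All 1622 and 2762 calls kept their sign after median of ratios scaling, under which 50.9% of calls were higher in place of 37.0%. With the spread taken from the 4 compared libraries alone, 190 genes (1.17%) were higher and 59 (0.364%) lower, of which 173 and 54 were also called with the spread of all 43 libraries. Against the other 12 chin libraries, 180 of the higher genes had both late-labelled values above every one (1.75% of tested genes did) and 1325 of the lower genes had both below every one (12.7% of tested genes did).

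Of the gene lists, skeletal muscle genes had the largest median rise. Sarcolipin (Sln), a small inhibitor of the calcium pump of muscle, was at 0 and 0.44 FPKM in the mid libraries and at 34.51 and 39.80 FPKM in the late-labelled ones, a log2 change of 4.99 ± 0.54 (SE). The pump itself, Atp2a1, rose from 28.11 and 14.08 FPKM to 400.15 and 412.61 FPKM (log2 change 4.28 ± 0.32, adjusted p = 1.03e-10), with 21.9% of its exon bases shared with Rabep2 on the opposite strand. Pvalb, the calcium buffer parvalbumin of fast fibres, rose from 25.21 and 16.47 FPKM to 386.06 and 344.85 FPKM, and Pgam2, the muscle form of a glycolytic mutase, from 25.52 and 6.73 FPKM to 242.08 and 244.81 FPKM. The fast troponins moved alike: Tnnc2 went from 159.95 and 80.12 FPKM to 1736.92 and 1796.39 FPKM, and Tnnt3 from 59.92 and 28.98 FPKM to 682.12 and 630.01 FPKM. Tnnc2 shares 74.0% of its exon bases with Ube2c on the opposite strand, and Ube2c was itself not called (log2 change -0.31). Rpl3l, the ribosomal protein that striated muscle uses in place of Rpl3, rose from 0.84 and 1.05 FPKM to 12.15 and 12.28 FPKM. In each of these genes the late-labelled libraries lay close together and far above both mid libraries.

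Of 30 listed skeletal muscle genes 28 were tested, 27 were higher and none was lower, against 10.0% and 17.0% of all genes tested. Their median log2 change was 3.60, against -0.07 over all genes. The count was 19 with the spread of the 4 libraries alone and 24 to 27 when any library was left out. Summed over the list, the mid libraries held 979.1 and 411.6 FPKM and the late-labelled ones 8843 and 8592 FPKM. The sum was 850 to 885 FPKM in chin competent telogen, 691 to 1692 FPKM in early anagen, 4924 to 5195 FPKM in catagen and 18790 to 29873 FPKM in refractory telogen, so that the late-labelled libraries did not stand outside the chin range. They matched dorsal competent telogen, at 8916 to 8969 FPKM. The same list had a median of -1.40 from mid to late anagen in dorsal skin and 0.40 in ventral skin. The change in chin differed from that in dorsal skin in 27 of the 28 genes and from that in ventral skin in all 28, where 14.6% and 23.2% of all tested genes did. How much muscle each dissection took was not tested.

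The other genes that the naming rule placed among the largest rises were not of muscle alone. Amtn, which encodes amelotin, a secreted protein of the tooth surface, rose from 1.22 and 1.41 FPKM to 53.73 and 62.27 FPKM (log2 change 4.67 ± 0.29, adjusted p = 2.91e-12). It lies on GRCm38 chromosome 5 from 88376108 to 88385916 on the plus strand. Ppp1r27, a regulatory subunit of protein phosphatase 1, rose from 0.40 and 0.75 FPKM to 24.28 and 22.47 FPKM. Krtap20-2, a keratin-associated protein of the hair shaft on chromosome 16 from 89205861 to 89206394, rose from 8.47 and 11.08 FPKM to 329.37 and 321.17 FPKM (log2 change 4.93 ± 0.24, adjusted p = 2.23e-14), the smallest adjusted p of the named genes.

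Keratin-associated proteins cross-link the keratin filaments of the shaft, and most of their genes lie in tandem clusters. Over the protein-coding genes with a Krtap symbol there was no common direction: of 55 tested members 15 were higher and 11 lower, with a median of 0.08. Over all genes tested 10.0% were higher and 17.0% lower. By chromosome the counts differed, a difference that was not tested. On chromosome 11, 11 of 23 were higher and 1 was lower (median 0.44), while on chromosome 16, 4 of 23 were higher and 7 lower (median -0.26), and on chromosome 7, where Krtap5-3 fell from 38.17 and 25.45 FPKM to 7.02 and 5.03 FPKM, 0 of 5 were higher and 2 lower. Clone-named genes of the chromosome 16 cluster are outside these counts, which therefore cover only part of it. Of them Gm6358, Gm10061, Gm9789, Gm7735, 1110057P08Rik, Gm10228 and 1110025L11Rik were called higher and 2310061N02Rik lower. Neither 2310079G19Rik nor Gm10229 was called. The counts over the 55 members moved when any of the 4 libraries was left out. With the spread of the 4 libraries alone, 1 member was higher and 5 were lower.

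Within the chromosome 16 cluster, neighbouring genes moved in opposite directions. A run of 6 genes, 530 to 595 kb from Krtap24-1, rose by more than 3 log2 units each: Gm6358 by 6.75, Gm10061 by 3.35, Gm9789 by 5.75, Gm7735 by 5.57, 1110057P08Rik by 8.11 and Krtap20-2 by 4.93. These genes were chosen after their values were seen, and near-identical copies share reads, so that the split among copies is uncertain. Their sum was 126 and 143 FPKM in the mid libraries and 5791 and 5111 FPKM in the late-labelled ones. It was 0.2 to 1.4 FPKM in chin competent telogen, 3.0 to 5.0 FPKM in early anagen, 462 to 544 FPKM in catagen and 8451 to 13696 FPKM in refractory telogen, and 5254 to 5435 FPKM in dorsal competent telogen. The 7 protein-coding Krtap19 and Krtap16 genes of the cluster, all called lower, fell in sum from 48462 and 35669 FPKM to 15510 and 15627 FPKM, beside 16036 to 16267 FPKM in dorsal competent telogen. Krtap19-1, with the largest log2 fall of them, went from 4925.8 and 3454.34 FPKM to 396.34 and 415.54 FPKM (log2 change -3.34 ± 0.25, adjusted p = 5.22e-11). Krtap16-3 went from 10529.87 and 7151.24 FPKM to 2848.36 and 2968.43 FPKM.

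**Figure D2:**
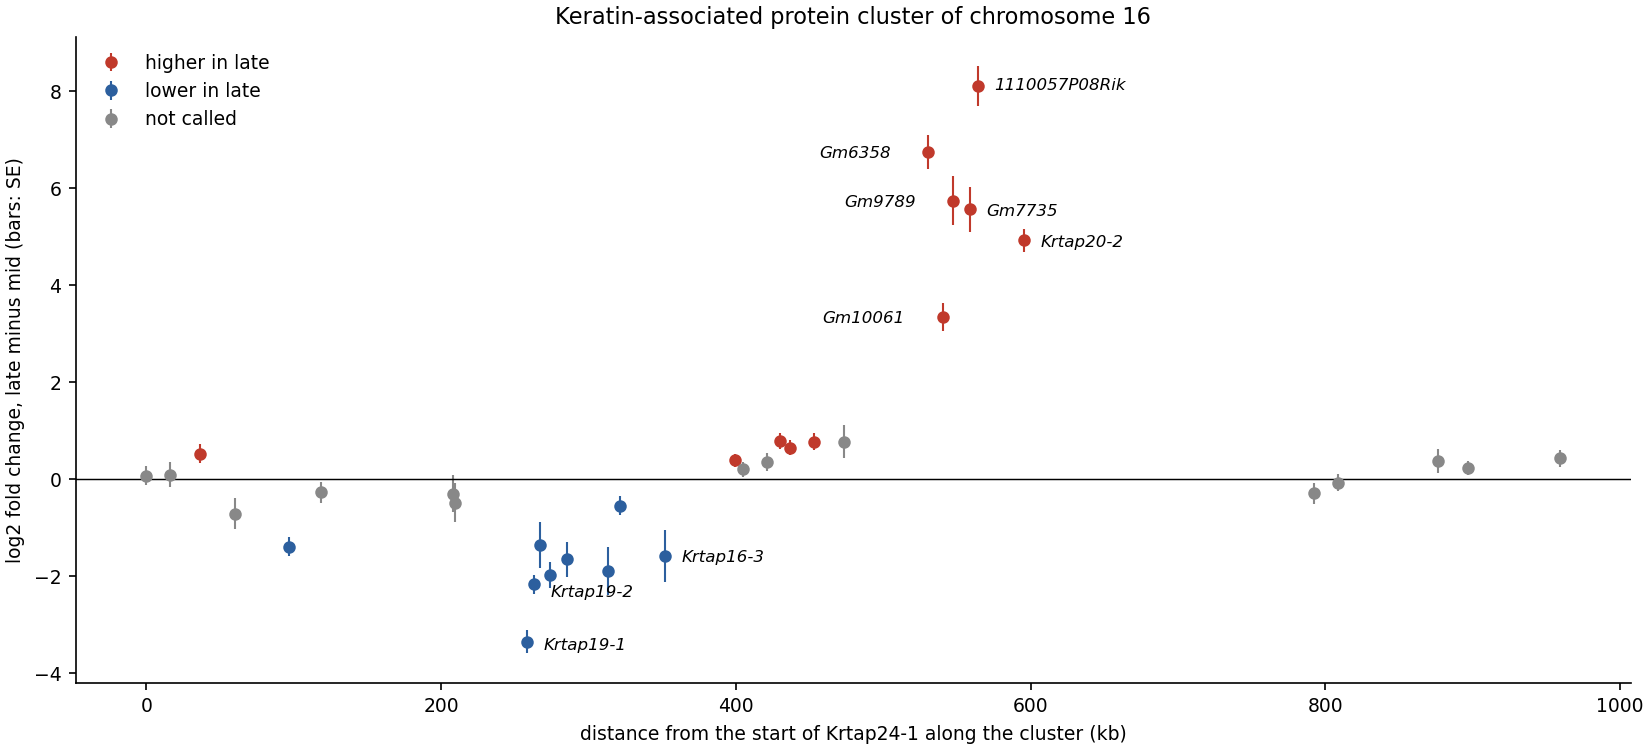
Log2 change, late-labelled minus mid anagen, with its SE, of each tested gene of the chromosome 16 keratin-associated protein cluster against its distance in kb from Krtap24-1. The 6 rising genes between 530 and 595 kb stand at 3.35 to 8.11, the Krtap19 and Krtap16 genes nearer to Krtap24-1 lie below 0.

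The promoters of the 6 rising genes shared letters that the comparison did not use, and they are shown with those of falling neighbours because the cluster split into these blocks. Each line gives 59 bases of the RefSeq promoter on GRCm38.p6, 5′ to 3′ on the gene's strand, and capitals mark the letters TGTGGTTT, which are those of a RUNX core motif, and TATAA, the core of a TATA box.
Gm6358, chr16:89140806-89140864, plus strand: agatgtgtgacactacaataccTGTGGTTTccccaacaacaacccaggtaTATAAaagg
Gm10061, chr16:89151004-89151062, plus strand: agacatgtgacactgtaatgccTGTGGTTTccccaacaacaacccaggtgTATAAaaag
Gm9789, chr16:89157871-89157929, plus strand: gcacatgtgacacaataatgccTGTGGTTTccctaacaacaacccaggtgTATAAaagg
Gm7735, chr16:89169356-89169414, plus strand: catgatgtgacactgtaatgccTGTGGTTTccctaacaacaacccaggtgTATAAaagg
1110057P08Rik, chr16:89174654-89174712, plus strand: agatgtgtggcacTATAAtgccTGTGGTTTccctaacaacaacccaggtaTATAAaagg
Krtap20-2, chr16:89205780-89205838, plus strand: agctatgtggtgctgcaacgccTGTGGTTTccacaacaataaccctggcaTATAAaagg
Krtap19-1, chr16:88869468-88869526, minus strand: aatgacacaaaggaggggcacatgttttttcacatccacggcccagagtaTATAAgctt
Krtap16-3, chr16:88962895-88962953, minus strand: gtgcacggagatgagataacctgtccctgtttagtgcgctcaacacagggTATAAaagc

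In promoter windows of 300 bases, from 250 before to 50 after each start, TGTGGTTT on either strand was found in 586 of 32851 promoters (1.78%) and TATAA in 24.9%. TGTGGTTT followed 20 bases later by TATAA was found in 11 promoters (0.0335%), all on chromosome 16, among them the 6 rising genes. None of the 7 falling Krtap genes and none of 19 other tested genes of the cluster, Krtap7-1 and Krtap19-9a not being among those searched, held the pair at that distance, though TGTGGTTT alone stood in 1 of the 7 and in 3 of the 19. Counted from the RefSeq start, the last TATAA of each line shown began at -88 in Gm6358 and 1110057P08Rik, -85 in Gm10061 and -84 in Gm7735. It began at -31 in Krtap20-2, at 5, past the start, in Gm9789, at -66 in Krtap19-1 and at -30 in Krtap16-3. The motifs were chosen after the sequences were seen, the genes are copies of each other with shared promoter sequence, and the match is a description and not a binding site.

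Genes of fat rose as a group, where 10.0% of all genes tested were higher and 17.0% lower. Adipoq, the fat cell hormone adiponectin, went from 74.39 and 44.29 FPKM to 184.5 and 181.3 FPKM, and Car3, a carbonic anhydrase abundant in fat cells and slow muscle, from 395.84 and 163.17 FPKM to 1000.2 and 1089.64 FPKM. Cfd, the secreted protease adipsin, and Retn, the hormone resistin, rose by 1.62 and 1.56 log2 units. In each of the 4 the libraries of the stages did not overlap. Of 24 adipocyte and lipid storage genes, all tested, 18 were higher and 1 lower, with a median of 0.86, and the number higher was 14 to 19 when any library was left out. None passed with the spread of the 4 libraries alone, where adjusted p was 0.0776 for Adipoq. The summed level was 2583 and 1967 FPKM in the mid libraries and 4944 and 4848 FPKM in the late-labelled ones, the latter beside 4990 to 5023 FPKM in dorsal competent telogen. From mid to late anagen the median of the list was 0.26 in dorsal skin and -1.01 in ventral skin. The chin change differed from the dorsal one in 8 of the 24 genes and from the ventral one in 16. Of all tested genes 14.6% and 23.2% did.

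Dermal and immune genes moved the same way, beside the 10.0% higher and 17.0% lower of all genes tested. Eln, elastin, went from 4.23 and 4.0 FPKM to 14.47 and 14.44 FPKM (log2 change 1.60 ± 0.17), and Col14a1, a collagen of the fibril surface, from 3.47 and 2.16 FPKM to 8.83 and 9.81 FPKM. Lox, the cross-linking enzyme of collagen and elastin, rose by 1.00 log2 unit. Of 25 dermal fibroblast and matrix genes 19 were higher and 1 lower (median 0.64). That count was smaller without mid anagen replicate 2. The list had a median of 0.41 from mid to late anagen in dorsal skin and -1.32 in ventral skin. The chin change differed from the dorsal one in 4 of the 25 genes and from the ventral one in all 25. Of all tested genes 14.6% and 23.2% did. The chains of complement C1q, which tissue macrophages make, rose the most of the macrophage genes: C1qa from 18.09 and 7.40 FPKM to 82.4 and 66.84 FPKM, C1qb from 20.83 and 8.47 FPKM to 84.07 and 80.36 FPKM, and C1qc from 17.73 and 6.80 FPKM to 52.97 and 42.66 FPKM. Of 24 macrophage and antigen presentation genes 18 were higher and 1 lower (median 0.96), of which 2 passed with the spread of the 4 libraries alone.

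Other cells of the dermis were also represented, with 10.0% higher and 17.0% lower over all genes tested as the background. Of 6 tested mast cell genes 4 were higher and 1 lower, led by the mast cell proteases Tpsb2, from 5.06 and 3.28 FPKM to 22.9 and 21.67 FPKM, and Mcpt4, from 9.36 and 7.12 FPKM to 27.91 and 28.03 FPKM. Mrgprb2, a mast cell receptor, was the lower gene. Haemoglobin and other red blood cell genes were higher in 5 of 6, with a median of 1.44. Of 11 nerve genes 4 were higher and 2 lower, and Mbp, a protein of the myelin sheath, rose by 1.22 log2 units. Vessel genes were higher in 4 of 17 and lower in none, smooth muscle genes in 4 of 10 and none, with Des, a muscle filament gene that skeletal muscle also uses, at 2.66 log2 units. Neutrophil genes were higher in 2 of 4 tested, S100a8 and S100a9, and fewer were higher when any of the 4 libraries was left out. T cell genes were higher in 1 and lower in 2 of 10. Of the 3 tested salivary gland genes and the 1 tested cartilage gene none was called, and the summed level of either list did not pass 8.88 FPKM in the 4 libraries.

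**Figure D3:**
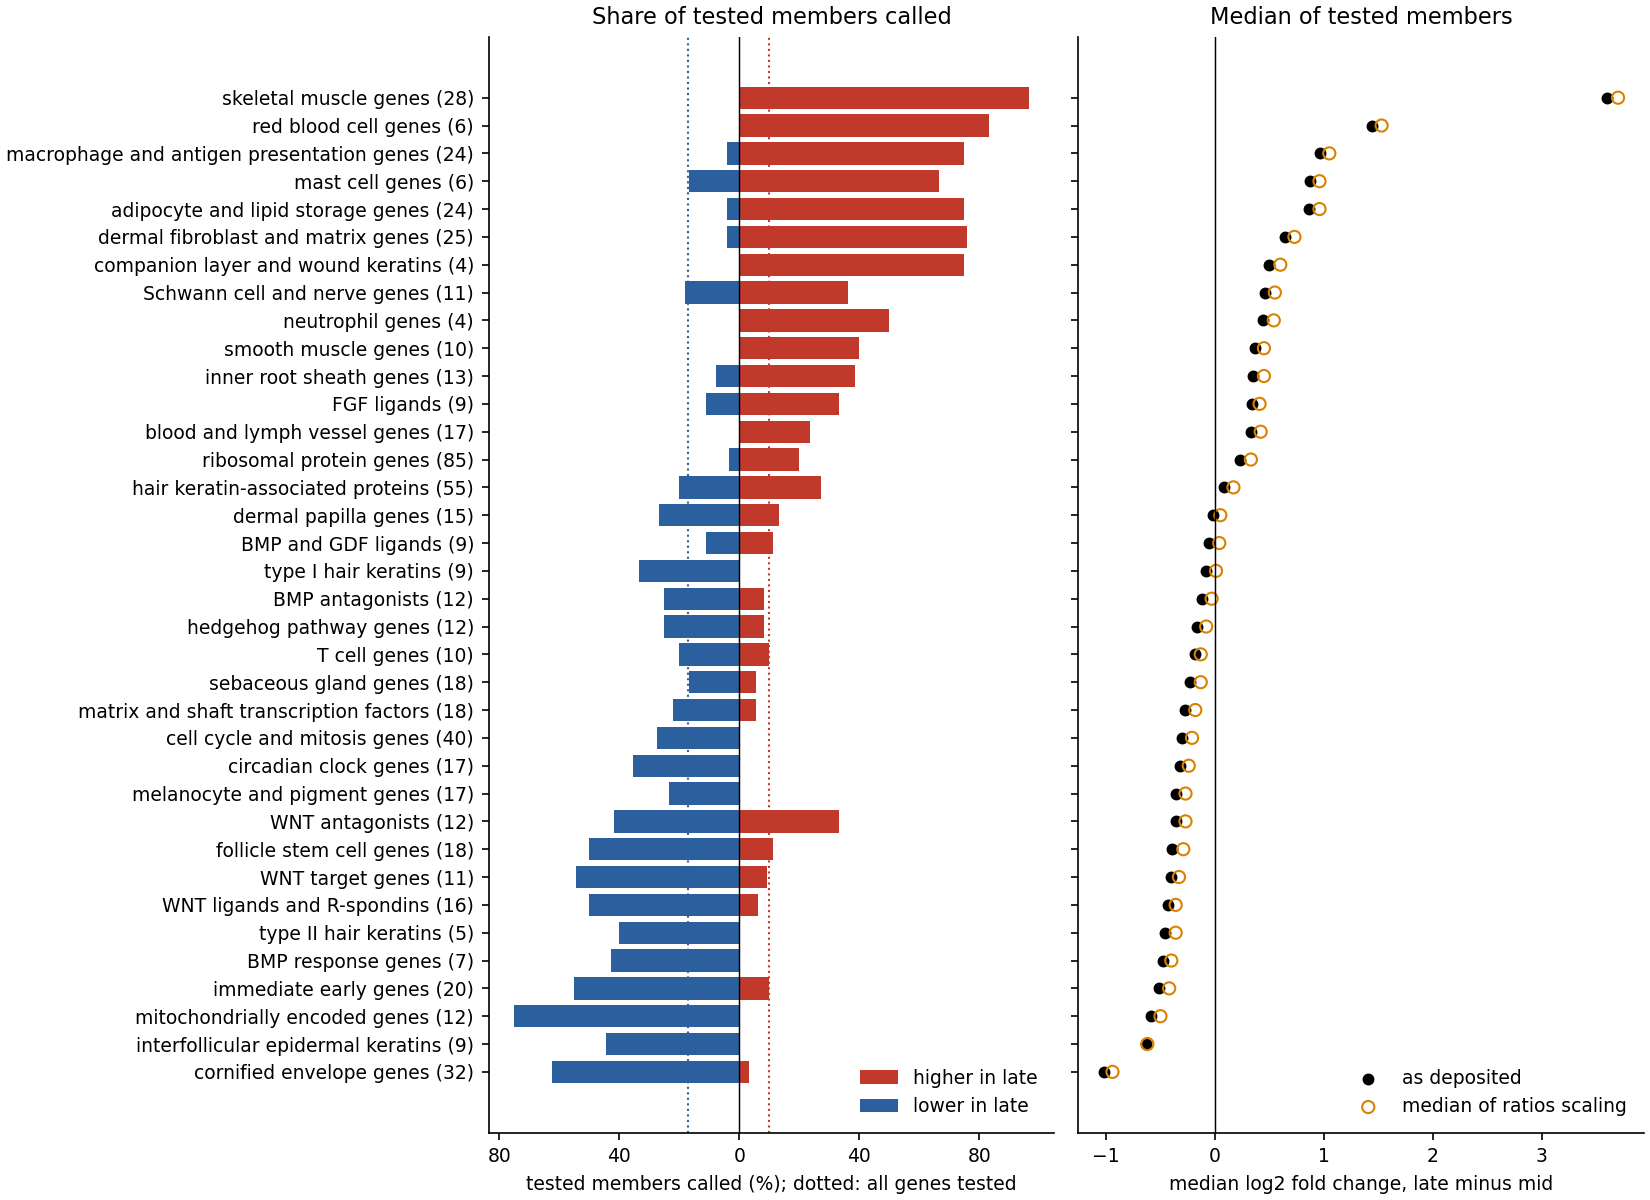
Left, share of the tested members of each gene list (their number in parentheses) called higher or lower in the late-labelled chin libraries, with dotted lines at the 10.0% and 17.0% of all tested genes. Right, median log2 change of the tested members as deposited and after median of ratios scaling, which runs from 3.60 in skeletal muscle genes to -1.02 in cornified envelope genes.

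Many genes of the differentiating epidermis fell, beside the 17.0% lower and 10.0% higher of all genes tested. Krt1 and Krt10, the partner keratins of the suprabasal layers, went from 46.01 and 106.56 FPKM to 20.9 and 23.97 FPKM and from 278.05 and 648.5 FPKM to 139.09 and 141.29 FPKM. Lor, loricrin, the bulk protein of the cornified envelope, went from 597.58 and 931.82 FPKM to 220.29 and 167.34 FPKM, and filaggrin (Flg), which bundles keratin in the granular layer and is listed under 5 identifiers, of which the one annotated as protein-coding is given, from 180.7 and 506.67 FPKM to 66.88 and 65.39 FPKM (log2 change -2.18 ± 0.24, adjusted p = 1.15e-07). Klk14, a protease of the stratum corneum, fell from 4.76 and 10.63 FPKM to 1.29 and 0.42 FPKM. In all 5 genes mid anagen replicate 2 was the highest library, and both mid libraries were above both late-labelled ones. Of 32 tested cornified envelope identifiers 20 were lower and 1 higher, with a median of -1.02, and the number lower was 11 without mid anagen replicate 2 and 3 with the spread of the 4 libraries alone. The exception was Sprr2h, a small proline-rich envelope protein, which rose from 126.57 and 113.23 FPKM to 375.1 and 389.99 FPKM and is named after its value was seen. Interfollicular keratins were lower in 4 of 9, Krt79 and Krt77 beside Krt1 and Krt10, and higher in none. Without mid anagen replicate 2 the changes were -1.01 in Krt1 and -0.98 in Krt10, both still called, and Krt77 was not called (-0.12).

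The remaining genes with large falls were of mixed kinds. Serpinb6d, a serine protease inhibitor, went from 23.77 and 17.52 FPKM to 0.36 and 0.20 FPKM (log2 change -4.07 ± 0.41, adjusted p = 1.39e-08), the largest fall of the named genes. Stfa2, a stefin that inhibits cysteine proteases, fell from 31.32 and 17.09 FPKM to 2.15 and 2.47 FPKM, and Gnmt, a glycine methyltransferase, from 103.81 and 95.72 FPKM to 21.87 and 19.02 FPKM. Pagr1a was at 15.05 and 17.86 FPKM in the mid libraries and at 2.91 and 0 FPKM in the late-labelled ones, but 98.7% of its exon bases are shared with Gm42742, so that its value is uncertain, and it was called only without the first late-labelled library of the fits that left out 1 library.

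Among follicle stem cell genes 9 of 18 were lower and 2 higher, with a median of -0.39, beside 17.0% lower and 10.0% higher over all genes tested. Krt24, a keratin found in the bulge, had a log2 change of -1.32 (-0.79 without mid anagen replicate 2), Tbx1, a T-box factor of follicle stem cells, from 44.22 and 37.85 FPKM to 21.08 and 21.02 FPKM, and Col17a1, the hemidesmosomal collagen that anchors stem cells, from 33.86 and 46.16 FPKM to 21.79 and 21.72 FPKM. Krt15, a keratin of the bulge and the basal layer, went from 863.58 and 1490.31 FPKM to 638.08 and 638.61 FPKM. The late-labelled values lay within 1 FPKM of each other in Tbx1, Col17a1 and Krt15, far closer than the mid values. The number lower was 5 without mid anagen replicate 2 or without either late-labelled library.

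**Figure D4:**
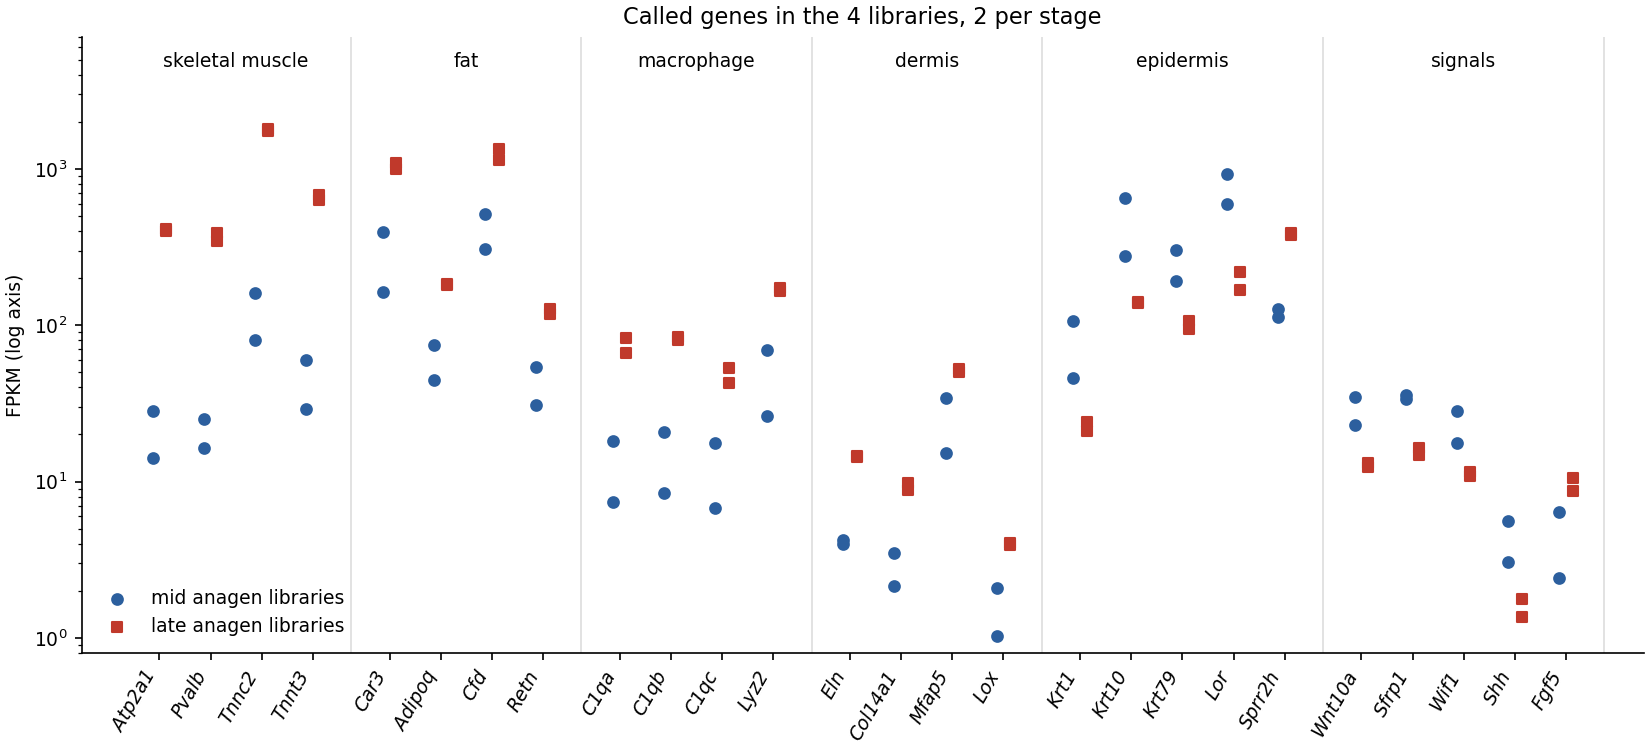
FPKM (log axis) of called genes, by group, in the 2 mid anagen libraries (blue circles) and the 2 libraries labelled late anagen (red squares). Muscle, fat, macrophage and dermal genes lie higher in the red squares, epidermal genes other than Sprr2h lie lower, and among the signals Fgf5 alone lies higher.

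Keratins of the hair shaft and genes of its sheath moved in opposite directions where they passed the test, apart from 1 sheath gene that was lower. Type I hair keratins were lower in 3 of 9 and higher in none, Krt33b with the largest change, from 3127.15 and 2101.71 FPKM to 1499.17 and 1403.13 FPKM. Type II hair keratins were lower in 2 of 5, Krt83 and Krt81. With 1 library left out the number lower ran from 1 to 4 in type I, with 4 without mid anagen replicate 2 and 1 without any other library, and from 0 to 3 in type II, with 0 without mid anagen replicate 1 and 1 without the second late-labelled library. Krt85 was not analysed here. In 5 of 13 inner root sheath genes the level was higher, led by Padi3, an enzyme that converts arginine to citrulline in the sheath, from 47.71 and 54.49 FPKM to 95.62 and 126.31 FPKM, and by the sheath keratins Krt73, Krt28 and Krt72, with changes of 0.74, 0.65 and 0.60 log2 units. That count of 5 was 1 without mid anagen replicate 2, 2 without the first and 3 without the second late-labelled library, and Padi3 and Krt28 were not called in at least 3 of the 4 fits that left out a library. Of 4 companion layer and wound keratins 3 were higher, Krt16, Krt75 and Krt6a. Among 18 matrix and shaft transcription factors 4 were lower and 1 was higher, near the 17.0% and 10.0% of all genes tested. The higher one, Hr, the hairless corepressor, went from 13.99 and 22.62 FPKM to 39.49 and 39.9 FPKM. Without mid anagen replicate 1 or either late-labelled library at most 1 of the 18 was lower, and without mid anagen replicate 2, 8 were.

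Cell cycle genes were lower in 11 of 40 and higher in none, with a median of -0.30 and a negative change in 35. Cenpf, a kinetochore protein, went from 9.20 and 9.81 FPKM to 5.25 and 4.68 FPKM, and Mcm4, a subunit of the replicative helicase, from 10.92 and 7.88 FPKM to 5.56 and 5.13 FPKM. Here 1 library decided the count, with 20 lower genes without mid anagen replicate 2, 5 without replicate 1 and 4 without the second late-labelled library, and none passed with the spread of the 4 libraries alone. Pigment genes were lower in 4 of 17 (17.0% of all genes were) and higher in none, and the number lower was 8 without mid anagen replicate 2 and 2 without either late-labelled library. Oca2, a melanosome transporter, was at 2.99 and 2.29 FPKM and then at 0.95 and 1.05 FPKM, and Mc1r, the melanocortin receptor, fell by 0.66 log2 units and was not called without the second late-labelled library. Sebaceous gland genes were lower in 3 of 18 and higher in 1, beside 17.0% and 10.0% of all genes tested, so that the list lay near the background.

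Of the signalling genes, the WNT ligands and targets held the most falls, beside the 17.0% lower and 10.0% higher of all genes. Of 16 tested WNT ligands and R-spondins 8 were lower and 1 higher (median -0.43). Wnt10a, a ligand of matrix and epidermis, went from 34.74 and 22.98 FPKM to 12.39 and 13.2 FPKM (log2 change -1.09 ± 0.18, adjusted p = 5.61e-05), and Wnt6 from 5.83 and 4.93 FPKM to 2.64 and 2.87 FPKM. Wnt2, the ligand that was higher, rose by 0.54 log2 units and is named after its value was seen. The number of lower ligands was 3 without the first late-labelled library, 4 without the second or without mid anagen replicate 1, and 9 without replicate 2, and Wnt6 was not called without mid anagen replicate 1 or the first late-labelled library. WNT target genes were lower in 6 of 11 and higher in 1. Znrf3, a ubiquitin ligase that removes WNT receptors, went from 52.35 and 22.4 FPKM to 11.97 and 12.49 FPKM, and Ccnd1, cyclin D1, from 35.81 and 37.46 FPKM to 19.21 and 17.8 FPKM, with 23.4% of its exon bases shared with LTO1. The number of lower targets was 3 without either late-labelled library, and the log2 change of Znrf3 was -0.82 without mid anagen replicate 1 in place of -1.42. WNT antagonists went both ways, with 5 of 12 lower and 4 higher, numbers that were 3 lower without either late-labelled library and 2 higher without mid anagen replicate 2. Sfrp1, a secreted decoy of WNT ligands, fell from 35.56 and 33.81 FPKM to 16.43 and 14.83 FPKM (log2 change -1.10 ± 0.08, adjusted p = 3.12e-11), and Wif1 had a log2 change of -0.94 (-0.61 without mid anagen replicate 1). Their relatives Sfrp2, from 5.45 and 2.89 FPKM to 11.63 and 11.25 FPKM, and Sfrp4, from 2.60 and 1.22 FPKM to 5.62 and 5.17 FPKM, rose, though neither was called without mid anagen replicate 2. Among the members of this list only Sfrp1 also passed with the spread of the 4 libraries alone (adjusted p = 0.0475).

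Of 9 BMP and GDF ligands, 1 was higher, Bmp4 with a log2 change of 0.37, and 1 lower, Bmp2 with -0.33, and Bmp4 lost its call in 3 and Bmp2 in 4 of the 4 fits that left out a library. Over all genes tested 10.0% were higher and 17.0% lower, which is near the share of these ligands and is the background of the counts below. BMP antagonists were lower in 3 of 12, Grem1, Sostdc1 and Nog, and higher in 1, Chrdl1, which went from 0.80 and 0.37 FPKM to 2.98 and 2.81 FPKM. Without mid anagen replicate 2 Grem1 was not called and Sostdc1 had a change of -0.40 in place of -0.76, and Nog was not called without either late-labelled library. Of 7 BMP response genes 3 were lower and none higher, Id2 going from 205.38 and 163.64 FPKM to 112.59 and 110.28 FPKM beside the inhibitory Smad6 and Smad7, a count that was 1 without mid anagen replicate 1 or the second late-labelled library. Hedgehog genes were lower in 3 of 12 and higher in 1. Shh, the matrix ligand, went from 5.57 and 3.07 FPKM to 1.35 and 1.76 FPKM, and was not called without mid anagen replicate 1 (log2 change -0.68, adjusted p = 0.0912). The effector Gli3 fell by 0.76 log2 units and Gli2 rose by 0.36, a call kept only without mid anagen replicate 1. FGF ligands were higher in 3 of 9 and lower in 1. Fgf5, the signal known to end anagen, went from 6.37 and 2.42 FPKM to 10.49 and 8.69 FPKM (log2 change 1.07 ± 0.24, adjusted p = 0.00158), and Fgf21 and Fgf22 also rose while Fgf18, a bulge signal, fell by 0.71. Without mid anagen replicate 2 the change of Fgf5 was 0.52 (adjusted p = 0.115) and without replicate 1 it was 1.63. The number of higher FGF ligands was 0 without mid anagen replicate 2 and 1 without the first late-labelled library, and Fgf18 was called only without mid anagen replicate 1. Dermal papilla genes were higher in 2 of 15 and lower in 4, with Inhba, the activin subunit, up from 6.03 and 4.40 FPKM to 11.41 and 12.89 FPKM and Trps1, a GATA-type repressor, down by 0.64 log2 units. With 1 library left out, 1 papilla gene was higher and 1 to 3 were lower, with 1 lower without the first late-labelled library and 2 without the second or without mid anagen replicate 1.

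The study's own lists of putative activators and inhibitors of the cycle were described in the same way. Of 224 tested activators 15 were higher and 53 lower (median -0.21), and of 118 inhibitors 14 were higher and 23 lower (median -0.08). Against the 10.0% and 17.0% of all genes, activators were lower in a larger share and inhibitors lay near the background in both directions. The number of lower activators ran from 27 without the second late-labelled library to 66 without mid anagen replicate 2, and that of lower inhibitors from 8 to 25. The study took both lists from the time course of a separate microarray dataset of whole skin, not from these libraries.

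Further lists of general cell state also moved. Immediate early genes were lower in 11 of 20 and higher in 2 (median -0.51), where 17.0% and 10.0% of all genes were, and the number lower was 6 without the second late-labelled library. Among them were Atf3, from 4.60 and 7.70 FPKM to 2.36 and 1.98 FPKM, and Fosb and Klf4 down by 0.92 and 0.87 log2 units. Clock genes were lower in 6 of 17 and higher in none. Per3, a period gene of the negative limb of the clock, went from 22.91 and 17.3 FPKM to 8.19 and 8.02 FPKM, and Per1 from 5.92 and 12.58 FPKM to 3.14 and 3.70 FPKM, with a log2 change of -1.14 that was -0.65 without mid anagen replicate 2. Time of day at collection was not given in the sources used here. Of 12 mitochondrially encoded genes 9 were lower, with mt-Co1, a subunit of cytochrome oxidase, from 2479.47 and 2842.72 FPKM to 1434.36 and 1330.46 FPKM. That number was 5 without mid anagen replicate 2. Ribosomal protein genes were higher in 17 of 85 and lower in 3 (median 0.23), a count that was 6 without either late-labelled library or without mid anagen replicate 1. Summed over the list, the mitochondrial genes held 28691 and 37699 FPKM in the mid libraries and 19036 and 19732 FPKM in the late-labelled ones, beside 21172 and 21211 FPKM in dorsal competent telogen.

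A set of 13 index genes of the follicle was read in every chin stage whatever their values. Shh, Mki67 and Krt15 were lower and Fgf5 and Lgr5 higher in the late-labelled libraries, while Krt35, Krt71, Tchh, Foxn1, Hoxc13, Msx2, Lef1 and Tyr were not called. Mki67, a mark of dividing cells, was at 8.76 and 6.69 FPKM in the mid libraries and at 5.87 and 6.09 FPKM in the late-labelled ones (log2 change -0.31 ± 0.09), between chin catagen at 7.43 to 7.87 FPKM and refractory telogen at 1.81 to 2.05 FPKM. Shh followed the same order, with 2.56 to 2.99 FPKM in catagen and 0.51 to 0.75 FPKM in refractory telogen. Fgf5 was at 1.00 and 1.10 FPKM in competent telogen and 9.15 to 10.21 FPKM in catagen, a range that its late-labelled values of 10.49 and 8.69 FPKM straddled. Lgr5, a receptor of stem and sheath cells, was at 4.81 and 5.76 FPKM in the mid libraries and at 6.99 and 7.07 FPKM in the late-labelled ones, below the 11.25 to 13.71 FPKM of both telogen stages and early anagen. Krt71, an inner root sheath keratin, was at 7531.75 and 6270.58 FPKM and then at 7981.13 and 8334.9 FPKM, and Tchh, the sheath protein trichohyalin, at 2297.53 and 2407.0 FPKM and then at 1916.36 and 1813.71 FPKM. Neither passed the test although the libraries did not overlap. With 1 library left out, Krt15 lost its call without mid anagen replicate 2 (log2 change -0.44, adjusted p = 0.0639), Mki67 in all fits but that without mid anagen replicate 2 (-0.14 to -0.48) and Lgr5 in all but that without mid anagen replicate 2. None of the 13 passed with the spread of the 4 libraries alone.

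**Figure D5:**
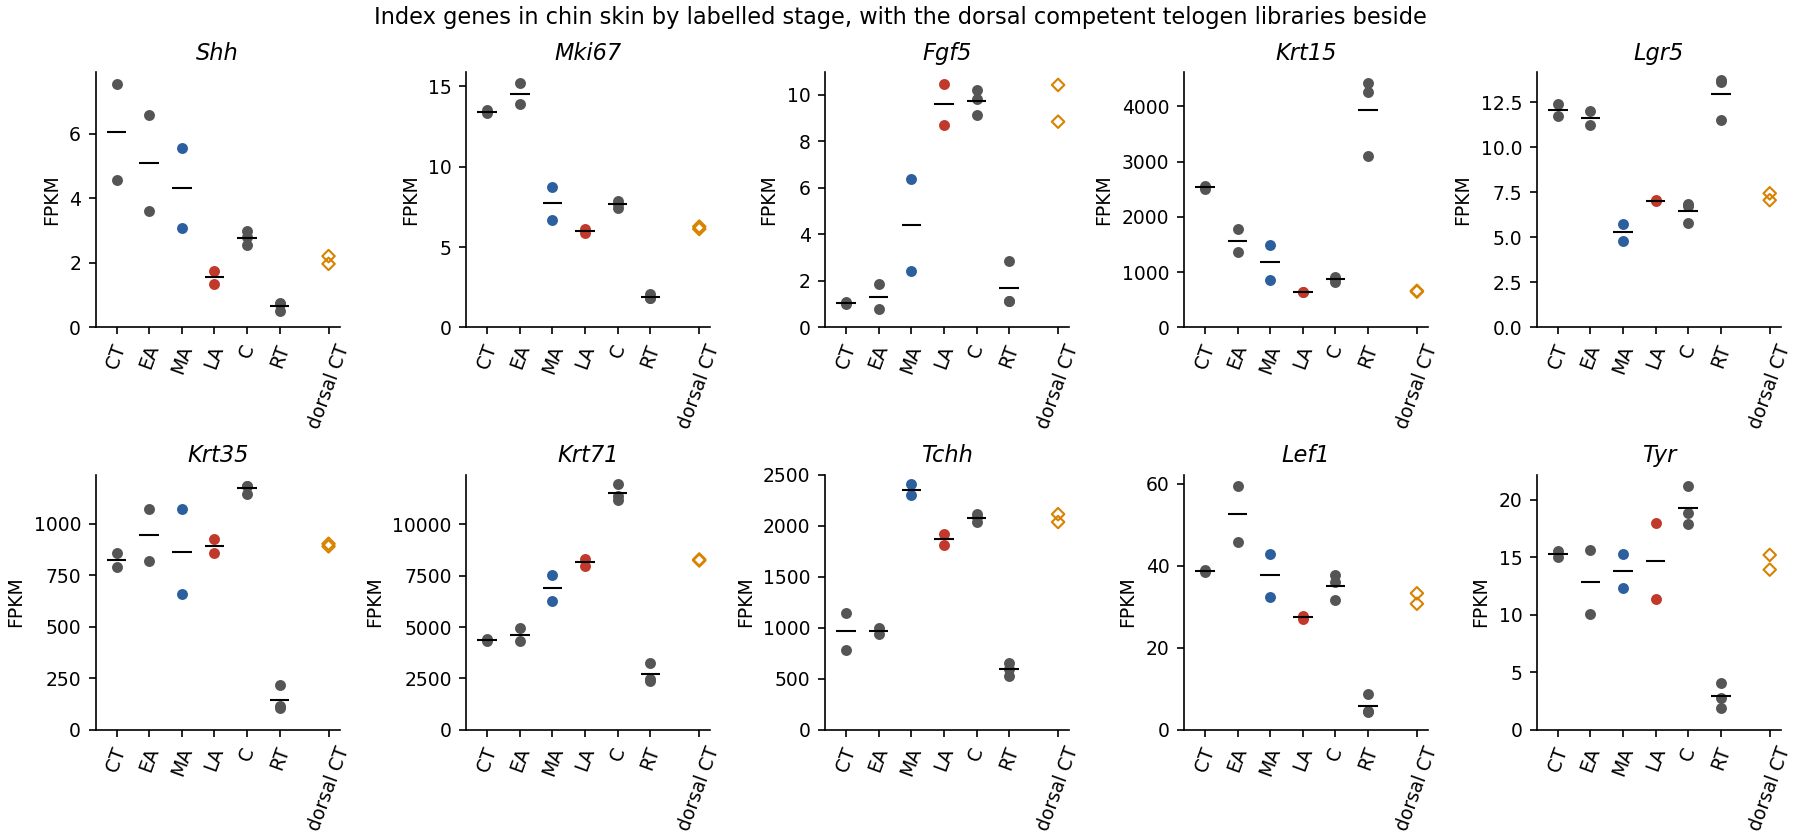
FPKM of 10 index genes in each chin library by labelled stage (CT competent telogen, EA early anagen, MA mid anagen in blue, LA late anagen in red, C catagen, RT refractory telogen; bars are means), with the 2 dorsal competent telogen libraries as open diamonds. The late-labelled points lie near the diamonds in Mki67, Krt15, Lgr5 and Krt35, and the axis of each gene starts at 0.

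The same step of the cycle was then set beside dorsal and ventral skin, which share no libraries with chin skin. From mid to late anagen 613 genes (3.72%) changed in dorsal skin and 5386 (33.4%) in ventral skin, by the same test. The chin change differed from the dorsal one in 2573 of 17615 genes (14.6%), and from the ventral one in 4029 of 17397 genes (23.2%). Both tests rest on the same 4 chin libraries. Fgf5 rose by 1.07 log2 units in chin, changed by -0.17 in dorsal skin (adjusted p = 0.84) and fell by 0.93 in ventral skin. The difference was 1.24 ± 0.32 against dorsal and 2.00 ± 0.33 against ventral skin. Krt15 fell in chin by 0.83 and changed by 0.02 and 0.26 in dorsal and ventral skin, a difference of -0.85 ± 0.23 and -1.09 ± 0.24. Mast cell genes had a median of 1.49 in dorsal and -2.20 in ventral skin beside 0.87 in chin, and cornified envelope genes 0.17 and 0.03 beside -1.02, the chin change differing from the dorsal one in 22 of 32 and from the ventral one in 17.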

How the data were processed

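RNA of whole skin with an RNA integrity number above 8 was made into full-length cDNA by a SMART-seq2 protocol, tagmented and sequenced as paired-end reads. Per the labels and the study's methods, the authors aligned to mm10 with GENCODE vM8, used RSEM 1.2.25 and deposited FPKM values with 2 decimals. The study's methods mention a batch correction and do not name the batches. Whether the deposited values hold that correction was not tested. No count model was fitted, since no counts were at hand.

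Libraries were grouped by their labels. Genes were tested on log2(FPKM + 1) where 2 or more of the 4 libraries reached 0.5 FPKM, and fold changes on that scale understate the change of low genes. The 43 skin libraries were fitted as 18 groups with limma 3.58.1 (R 4.3.3), with a variance trend and a Benjamini-Hochberg threshold of 0.05 over all genes tested, and the interactions with dorsal and ventral skin came from that fit. Nothing says that libraries of a group came from separate mice, so p-values measure the spread between these libraries, which may be technical. On simulated data of 16216 genes with 200 changed, 87% of changes of log2 1 and 97% of log2 2 were recovered, with 7 false calls. In that simulation all libraries shared 1 spread per gene, and groups did not differ apart from the changed genes. Changed genes were drawn from those with a mean above 2 on the log2(FPKM + 1) scale. The real mid anagen pair was more variable than most pairs, so these rates may not hold for this comparison. Depth was worked out from the smallest FPKM steps of single-transcript genes and limits precision most in the mid anagen pair.

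Named are the 8 protein-coding genes with the largest change in each direction among those called, not overlapping and at a mean of 5 FPKM or more in a stage, up to 4 called members of each list, and 13 index genes. Krt85, also on that list, was not analysed here. Clone names, small RNA genes and pseudogenes were only counted, and some called genes are not reported here. Members and lists were chosen with earlier results of these data known. A gene outside the rule is marked as chosen with its values known. Positions are from GENCODE vM21 (GRCm38), promoters from RefSeq (GRCm38.p6). Same-numbered libraries deviated together with a correlation of 0.197 over 2 pairs, and no source pairs them. Alternatives covered the pseudocount, filters, scalings, variance model, replicate block and libraries in the fit. Sums, distances, motif searches and figures were made with matplotlib 3.10.9, scipy 1.17.1, pandas 2.3.3 and numpy 2.4.6 under Python 3.11.15.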

Additional observations from a re-analysis of the deposited data

Results flagged for a closer look

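The change from mid to late anagen differed from that in dorsal skin in 2573 genes and from that in ventral skin in 4029 genes, by the interaction tests. Among the index genes, the difference from dorsal skin was 1.24 log2 units for Fgf5 and -0.85 for Krt15. The difference from ventral skin was 2.00 log2 units for Fgf5, -1.09 for Krt15, -0.95 for Tchh, which was not called in chin and rose by 0.62 in ventral skin, and -0.43 for Mki67. In chin itself, the call of Fgf5 was lost without mid anagen replicate 2 (log2 change 0.52) and so was that of Krt15 (-0.44). All of these rest on the same mid libraries and on the chin libraries labelled late anagen. Hoxb7, Hoxb6 and Hoxa7 were at trunk levels in the latter, so that a difference between body regions and one between stages cannot be told apart. The design gives no chin late anagen library without that conflict.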

How the results depend on the processing

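Chin late anagen rests on 2 libraries whose Hox genes go against their label, and chin mid anagen on 2 libraries that differ more than most replicates. The study's batch correction was not described in detail, and whether the deposited values hold it was not tested. Taking the spread from the compared libraries alone gave 190 higher and 59 lower genes, and 2575 genes that differed between chin and ventral skin. A minimum of 5 FPKM gave 2645 for the latter. Leaving out each of the 4 libraries in turn gave 926 to 1511 higher genes, 1589 to 2582 lower genes, 1624 to 2975 genes that differed from dorsal skin and 3101 to 4443 that differed from ventral skin. The counts moved by more than 1.5 times without late anagen replicate 1 (1032 higher, 1770 lower), without late anagen replicate 2 (926 higher, 1589 lower, 1624 differing from dorsal skin) and without mid anagen replicate 1 (1738 lower). With a library left out, the lone library of its stage is assumed to vary like the other groups. With the replicate number as a block over 43 libraries 1624 genes were higher and 2730 lower, and with the block in the compared libraries alone 271 and 81, with 1260 and 733 genes differing from dorsal and ventral skin. Fits on the 14 chin libraries alone gave 1290 higher and 2034 lower genes and can give no interaction. The other pseudocount, scalings, filters and variance model kept these 4 counts within 1.5 times.

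Of 159 named or index gene changes, 26 kept their status, called or not called, under all alternatives that gave a value. Tchh and Lef1, which were not called, are among the 26. All but the fits on the compared libraries left the status of 95 as it was. In those fits 125 lost their call, or 118 with the replicate block. No called gene changed direction. Index genes that were not called changed sign in 6 cases. Krt35 went from 0.09 to -0.08 with quantile normalization, and ran from -0.26 (without mid anagen replicate 2) to 0.44 when 1 library was left out. With 1 library left out Foxn1 ran from -0.05 to 0.34 (main value 0.14), Msx2 from -0.53 (called without mid anagen replicate 2, adjusted p = 0.0318) to 0.09 (main value -0.22) and Tyr from -0.25 to 0.37 (main value 0.06), Tyr also being at -0.09 without mid anagen replicate 2. Krt71 passed after median of ratios scaling (log2 change 0.35, adjusted p = 0.0374).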
